A study of Sus scrofa with 10 samples.

Results

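The urea cycle enzymes CPS1, OTC, ASS1, ASL and ARG1 were followed in the liver of 10 female pigs. A probe set was taken for a gene when the platform annotation gave it that symbol and no other, which left 1 probe set for each of the 5 genes out of 23999 porcine probe sets. All 5 genes passed the minimum mean of 4 on the log2 scale, and so belong to the 4730 genes tested of 6765 genes with a probe set of their own. The animals came from an Iberian by Landrace backcross, were raised and fed under one standard regime, and were chosen from both ends of the first principal component of a set of traits, most of them intramuscular fatty acids and the rest carcass measures. The H group (5 females, high in the labels) had more polyunsaturated fatty acids in the loin muscle, and the L group (5 females, low in the labels) had more saturated and monounsaturated ones. The labels name no treatment, the pigs were slaughtered at close to the same age, each animal gave 1 Affymetrix GeneChip Porcine array, and genotypes at single loci are not given. Per the study's description the animals of a group had different mothers and 4 different fathers, so some animals of a group shared a father. Some H animals had a full sister or a maternal half-sister in L. The sources do not say which animals these were, so the tests treat the 10 as unrelated. The comparison of H with L asks whether the liver differs between pigs with opposite muscle fat composition.

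The urea cycle turns ammonia from amino acid breakdown into urea, and the liver is the organ that runs it in full. CPS1 and OTC work inside the mitochondrion, where ammonia is fixed as carbamoyl phosphate and then joined to ornithine to give citrulline. ASS1 and ASL work in the cytosol and add the nitrogen of aspartate, releasing fumarate and arginine, and ARG1 splits arginine into urea and ornithine, which returns to the mitochondrion. In mammalian liver these enzymes lie mostly in periportal hepatocytes, whereas glutamine synthetase (GLUL) takes up the remaining ammonia in the cells around the central vein. Their amounts are known to follow protein intake, glucagon and glucocorticoids.

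Values are log2 signals after background adjustment and normalization by the authors, so a difference of 1 is a doubling. The lowest value on the arrays was 2.19, and the brightest probe set of every array lay at 15.86 or higher. The levels of different genes come from different probes and are not set against each other. The hepatocyte markers were all measured (10 of 10), and their summed level ran from 18.22 to 18.39 in H and from 18.31 to 18.44 in L. Of these, 1 of 10 was higher in H (median difference -0.05), beside 37.2% of all tested genes. The brightest, APOC3, averaged 15.62, close to the array maxima, and differed by -0.11 (exact permutation p = 0.0317, unadjusted). Of the markers of other cells, 4 of 8 for Kupffer cells, 3 of 6 for endothelium, 4 of 7 for stellate cells, 1 of 5 for cholangiocytes, 1 of 6 for T and NK cells, 1 of 5 for B and plasma cells, 2 of 4 for red cells and 0 of 4 for neutrophils were measured, and the ranges of H and L overlapped in each measured list. In whole liver, fewer cells of a type and less RNA per cell cannot be told apart. The arrays of H4 and L3 stood slightly apart, with a median correlation with the other arrays of 0.972 and 0.973 against 0.978 to 0.980 for the other 8.

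CPS1, the mitochondrial carbamoyl phosphate synthetase that admits ammonia to the cycle, had the smallest SD of the 5. It stood at 14.45, 14.56, 14.61, 14.24 and 14.11 in H1 to H5. In L1 to L5 it stood at 14.39, 14.36, 14.13, 14.12 and 14.19. The 3 highest animals were H3, H2 and H1 and the lowest was H5, so the groups overlapped, and the highest animal exceeded the lowest 1.41-fold. Its SD over the 10 animals, 0.18, was larger than that of 36.0% of the tested genes. The highest CPS1 value lay 1.25 log2 units under the lowest array maximum, and whether so bright a signal narrows the spread was not tested.

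OTC, the ornithine transcarbamylase that makes citrulline, was the most variable. It stood at 10.84, 10.71, 11.21, 10.63 and 10.65 in H1 to H5. In L1 to L5 it stood at 10.56, 10.94, 9.28, 10.55 and 10.88. L3 lay far under every other animal, and the other 4 L animals lay within the range of H or just under it. The highest animal, H3, exceeded L3 3.80-fold, and the SD of 0.51 was larger than that of 92.2% of the tested genes.

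ASS1, the argininosuccinate synthetase that brings in aspartate, stood at 13.94, 14.25, 14.23, 13.98 and 13.32 in H1 to H5. In L1 to L5 it stood at 13.99, 13.98, 13.67, 13.96 and 13.72. H2 and H3 were the highest animals and H5 the lowest, so H reached beyond L on both sides, over a 1.90-fold range. ASL, the argininosuccinate lyase that releases arginine and fumarate, stood at 11.17, 11.13, 11.09, 10.13 and 10.49 in H1 to H5. In L1 to L5 it stood at 10.61, 10.72, 10.35, 10.79 and 10.91. H1, H2 and H3 lay above every L animal and H4 lay below them all, over a 2.07-fold range.

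ARG1, the liver arginase that yields urea, stood at 14.25, 13.81, 14.24, 13.72 and 13.61 in H1 to H5. In L1 to L5 it stood at 13.64, 14.18, 13.78, 13.58 and 13.68. H1, H3 and L2 formed the upper end and the other 7 animals lay at 13.81 or lower, over a 1.59-fold range. The median SD over the 10 animals was 0.28 for the 5 enzymes and 0.22 for all tested genes.

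**Figure D1:**
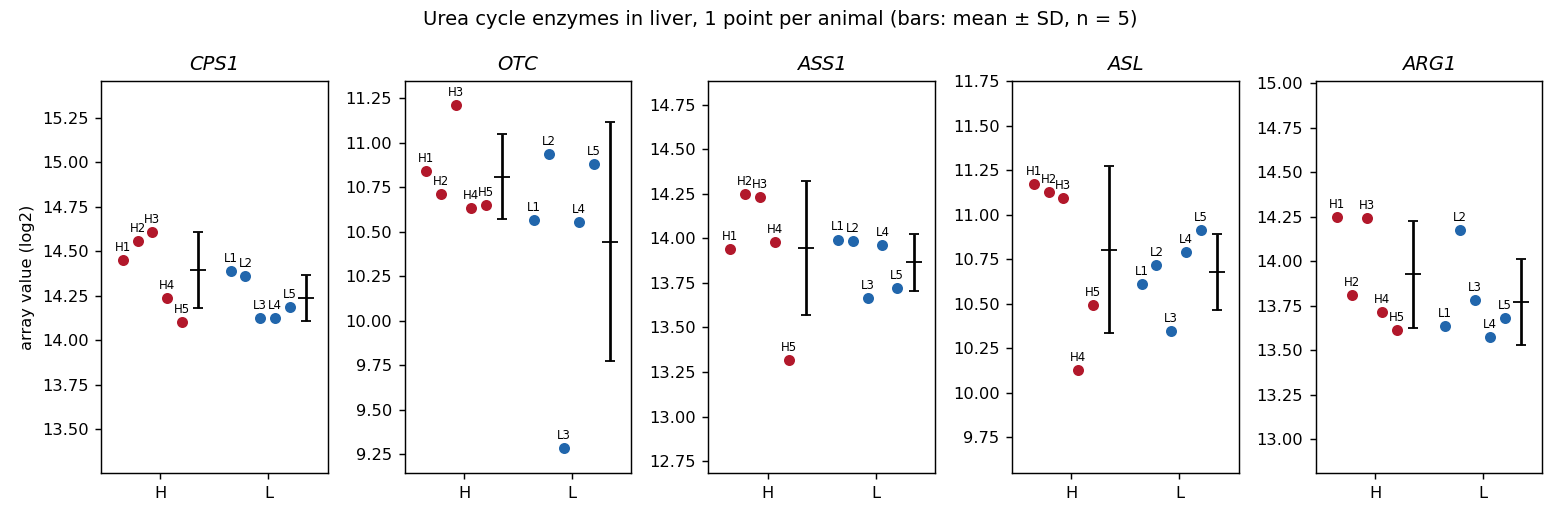
Array value (log2) of each urea cycle enzyme in each animal, H in red and L in blue, with the mean and SD of each group (n = 5); every panel spans the same number of log2 units. The groups overlap for all 5 enzymes, and OTC in L3 (9.28) lies under all other OTC values.

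No enzyme differed between H and L beyond the spread between animals. None of the 5 passed an adjusted p of 0.05 in limma, and neither did any other gene, 0 of 4730 (0.0%). At an unadjusted p under 0.05 the count was 0 of 5, beside 125 of 4730 genes (2.64%), of which 38 (0.803% of those tested) were higher and 87 (1.84%) lower in H. The groups overlapped for all 5, as they did for all but 17 of the tested genes (0.359%). The mean was higher in H for 5 of 5 enzymes, beside 37.2% of all tested genes, with a median difference of 0.15 against -0.04 over all tested genes. The members' median was 0.08 without H1 or H3 and 0.07 without L3, with 5 of 5 still higher in H. The enzymes vary together over the animals, so these 5 directions are not 5 separate observations.

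The estimates were small beside their intervals. CPS1 averaged 14.39 ± 0.21 over the 5 H animals and 14.24 ± 0.13 over the 5 L animals (± SD here and in what follows), a difference of 0.15 with a 95% interval from -0.10 to 0.41 (exact permutation p = 0.190). OTC was 10.81 ± 0.24 in H and 10.44 ± 0.67 in L, a difference of 0.36 from -0.27 to 1.001 (exact permutation p = 0.333). Without L3 the OTC difference was 0.07. ASS1 was 13.94 ± 0.38 in H and 13.87 ± 0.16 in L, a difference of 0.08 from -0.30 to 0.46 (exact permutation p = 0.754), and it ranged from 0.00299 to 0.23 as each animal was left out. ASL was 10.80 ± 0.47 and 10.68 ± 0.21, a difference of 0.13 from -0.34 to 0.59 (exact permutation p = 0.603). ARG1 was 13.93 ± 0.30 and 13.77 ± 0.24, a difference of 0.16 from -0.20 to 0.51 (exact permutation p = 0.302). The limma adjusted p was 0.985 for each enzyme. All p are two-sided, and 252 splits of 5 against 5 allow an exact p no smaller than 0.00794. The intervals leave room for an OTC level up to a doubling higher in H, so these arrays do not show that the groups are alike.

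**Figure D2:**
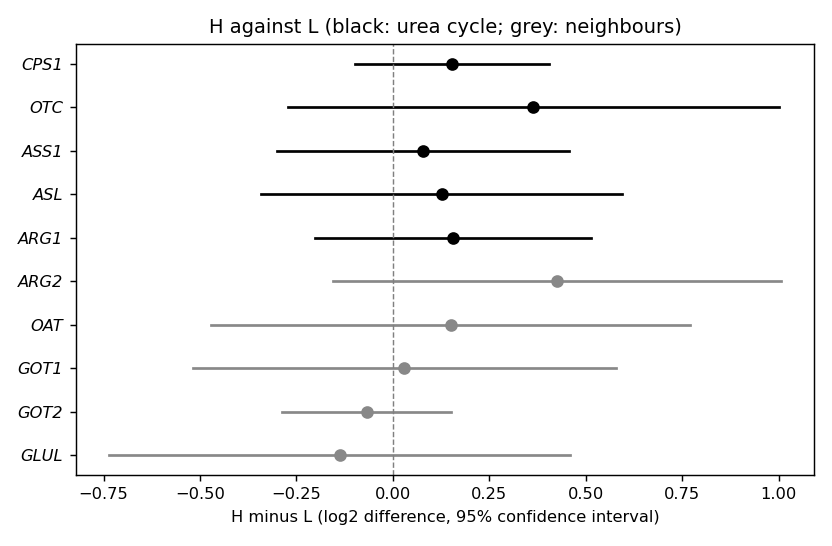
H minus L difference (log2) with its 95% confidence interval from limma, for the urea cycle enzymes (black) and 5 neighbouring enzymes (grey), over 5 H and 5 L animals. All 10 intervals contain 0, and the 5 urea cycle estimates run from 0.08 (ASS1) to 0.36 (OTC).

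The animals differed more than the groups did. H1 and H3 lay above the mean of all 10 animals for 5 of 5 enzymes, and L3 for 0 of 5. H3 had the highest mean standardized value over the 5 enzymes (1.28 SD units), followed by H1 (0.81) and H2 (0.74), and the lowest were L3 (-1.17) and H5 (-0.96). H therefore held the 3 highest animals and also 1 of the 2 lowest. H4 and H5 departed in different enzymes, ASL at 0.61 log2 units under its mean in H4 and ASS1 at 0.59 under its mean in H5.

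**Figure D3:**
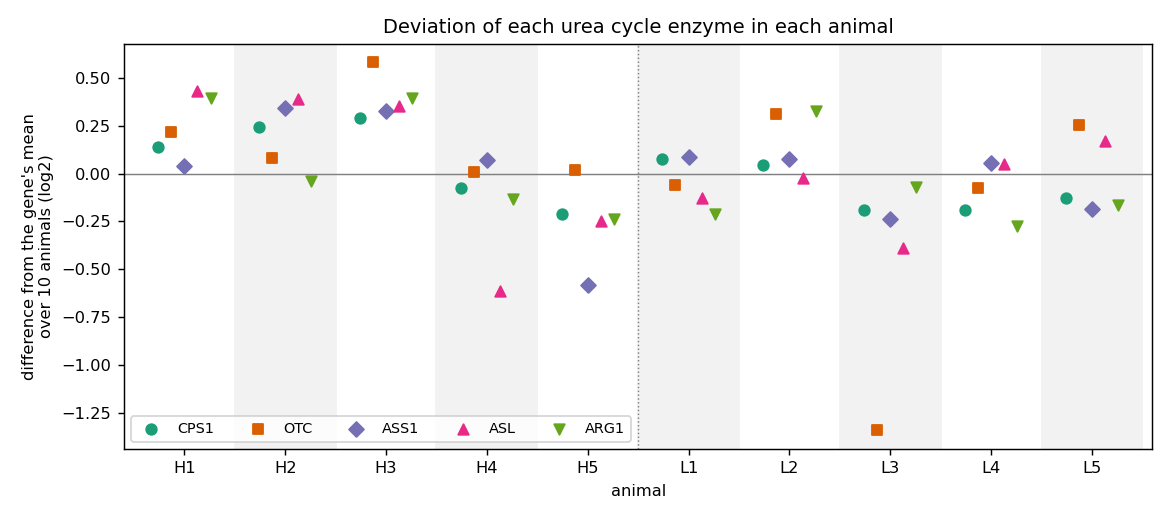
Difference of each enzyme from its own mean over the 10 animals (log2), with 1 marker shape per enzyme and a dotted line between the H and L animals. H1 and H3 lie above 0 for all 5 enzymes, L3 lies below 0 for all 5, and OTC in L3 is the point farthest from its mean.

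Co-variation of the 5 enzymes was moderate over the 10 animals. Pearson's r was above 0 in 10 of 10 pairs, from 0.39 for OTC and ASS1 to 0.80 for CPS1 and ASS1, with a median of 0.53 (median rho 0.57). Over all 11174628 pairs of tested genes the median r was 0.03, and 9.43% of pairs reached 0.53 or more. With each group centred on its mean the members' median was 0.48, and without L3 it was 0.55. A group of 5 animals is too small for a correlation of its own, so it is not shown that the relation holds within H and within L. These points share the array and the RNA of an animal, so the levels of 2 genes on an array are not independent measurements.

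CPS1 and ASS1, which supply the 2 nitrogen atoms of urea, gave the strongest pair (r = 0.804, permutation p = 0.00318, adjusted over 10 pairs 0.0318; rho = 0.806, permutation p = 0.00743, adjusted 0.0740). Without H2 and H3, the animals farthest from the median of CPS1, r was 0.639. The adjusted p of r was above 0.05, at 0.0563 to 0.125, when H1, H2, H3, H5, L1 or L2 was left out. CPS1 with ARG1 gave r = 0.685 (permutation p = 0.0351, adjusted 0.137). The rho of CPS1 with ARG1 was 0.758 (permutation p = 0.0148, adjusted 0.0740), with the same adjusted p as that of CPS1 and ASS1. CPS1 with ASL gave r = 0.662 (permutation p = 0.0411, adjusted 0.137), so the 3 pairs with an unadjusted p of r under 0.05 all contained CPS1. OTC with ARG1 gave r = 0.40 over 10 animals (permutation p = 0.287, adjusted 0.287) and 0.81 without L3 (permutation test, adjusted 0.0381), the animal in which OTC was low and ARG1 was 0.07 log2 units under its mean.

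Neighbouring enzymes were taken from a list of names, of which ARG2, OAT, GOT1, GOT2 and GLUL had measured probe sets. NAGS, SLC25A15, SLC25A13, GLUD1 and GLS2 are unnamed on this annotation. The test of their relations with the 5 enzymes was added after values had been seen. Of 25 relations, 0 had an adjusted p under 0.05 by r or by rho, 9 had an unadjusted p under 0.05 by r and 6 by rho, and r was above 0 in 19. Under 9 of 18 alternatives 1 to 6 of the 25 had an adjusted p under 0.05, among them those without L1 (4), L3 (1), L4 (3) or L5 (3).

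ARG2, the mitochondrial arginase, had its highest r with ARG1 and its highest rho with OTC. It stood at 7.95, 7.11, 7.87, 6.75 and 7.11 in H1 to H5, and at 6.72, 7.58, 6.61, 6.81 and 6.95 in L1 to L5. H1, H3 and L2, the 3 animals highest in ARG1, were also the 3 highest in ARG2, which gave r = 0.901 (permutation p = 0.0033, adjusted over 25 relations 0.0544) but rho = 0.60 (permutation p = 0.0736, adjusted 0.221). Without H1 and H3, r was 0.73. The rho of ARG2 was 0.82 with OTC (permutation p = 0.00554, adjusted 0.0567) and 0.68 with ASL (permutation p = 0.0351, adjusted 0.146). The 2 ARG2 probe sets that passed the minimum gave r of 0.92 and 0.81 with ARG1, and the remaining one, at a mean of 2.59, was near the floor. The ARG2 mean was 7.36 ± 0.53 for the H animals and 6.93 ± 0.38 for the L animals, a difference of 0.42 with an interval from -0.16 to 1.01 (exact permutation p = 0.175).

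OAT, the ornithine aminotransferase that draws ornithine out of the cycle, went with CPS1 (r = 0.81, permutation p = 0.0081, adjusted 0.0598) and with ASS1 (r = 0.75, permutation p = 0.0096, adjusted 0.0598). GOT1, the cytosolic aspartate aminotransferase, went with ASL (r = 0.82, permutation p = 0.0043, adjusted 0.0544). GOT2, its mitochondrial counterpart, gave r between -0.50 and 0.20 with the 5 enzymes. GLUL, the perivenous glutamine synthetase, gave r between -0.52 (ARG1) and 0.23 (OTC), and its H minus L difference was -0.14 (interval -0.73 to 0.46). Its 2 probe sets that passed the minimum differed in sign, at -0.35 and 0.07, and with the first alone r was -0.60 with CPS1 and -0.28 with OTC. The remaining GLUL probe set lay at the floor, at 2.19. The differences of OAT, GOT1 and GOT2 were 0.15, 0.03 and -0.07.

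**Figure D4:**
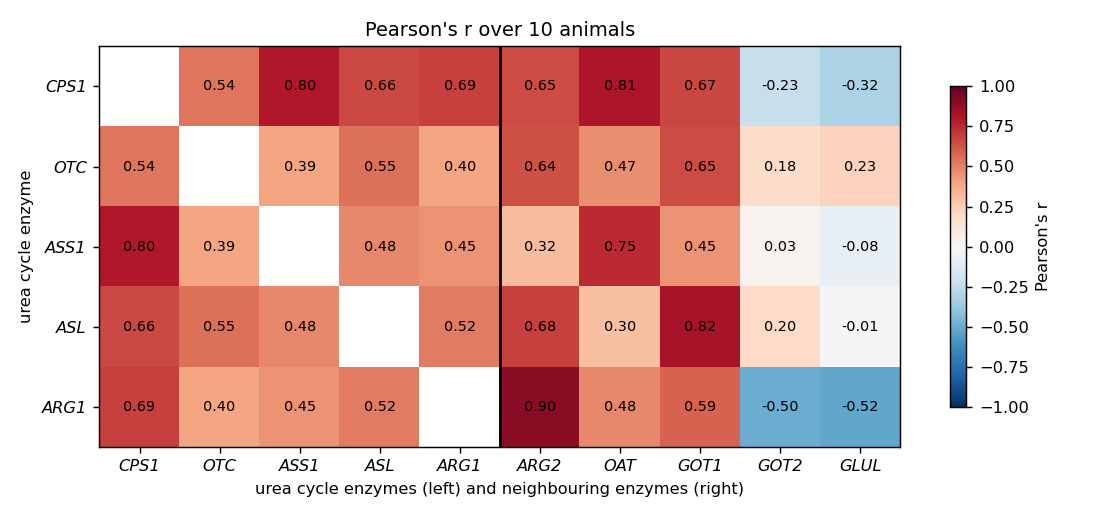
Pearson's r over 10 animals between the 5 urea cycle enzymes (left of the black line) and with 5 neighbouring enzymes (right). All pairs of urea cycle enzymes are positive (0.39 to 0.80), and GOT2 and GLUL, in the last 2 columns, are near 0 or negative except for OTC and ASL with GOT2 and OTC with GLUL.

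The genes whose levels were most like each enzyme are given as a description, over 10 animals and out of 4730 genes. CPS1 went with PPTC7 (r = 0.92), TSC22D3, a glucocorticoid-induced gene (0.91), and LPIN1, a phosphatidate phosphatase (0.90). OTC went with COX6C, a subunit of cytochrome c oxidase (0.97), BHMT, betaine-homocysteine methyltransferase (0.96), and CYP3A22, a cytochrome P450 (0.95). Without L3 these 3 values were 0.81, 0.82 and 0.72, and the genes nearest OTC were then TRIM44 (0.93), GADD45A (0.90) and CSRP1 (0.88). ASS1 went with ETNPPL (0.92), LRPAP1 (0.92) and LOC780435 (0.89). ASL went with SLC17A1, a phosphate transporter (0.96), AGT, angiotensinogen (0.89), and FAH, the last enzyme of tyrosine breakdown (0.88). ARG1 went with ARG2 (0.90), AVPI1 (0.86) and TADA3 (0.85). No gene stood among the nearest 3 of more than 1 enzyme, and no member was among them. By r, ASS1 ranked 16 with CPS1 and CPS1 ranked 13 with ASS1. The other member ranks ran from 32 (CPS1 with ARG1) to 569 (ASS1 with OTC).

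**Figure D5:**
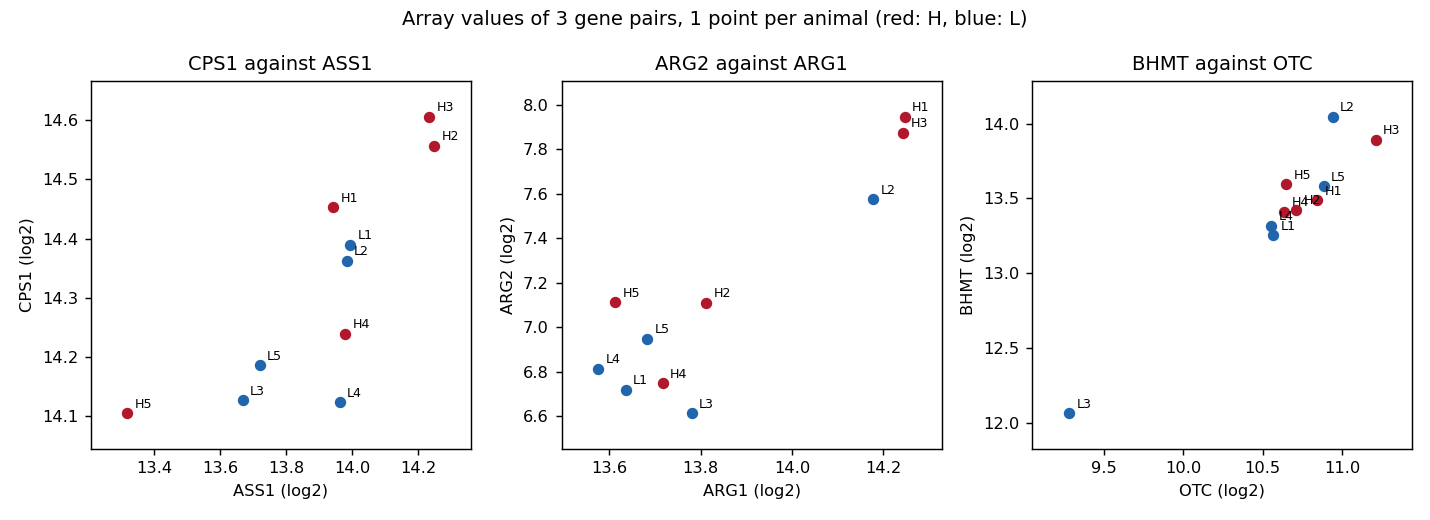
Array values (log2) of CPS1 against ASS1, ARG2 against ARG1 and BHMT against OTC, 1 point per animal, H in red and L in blue. H2 and H3 lead the first panel, H1, H3 and L2 stand apart in the second, and L3 stands apart in the third.

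Among other genes of nitrogen metabolism, in 7 lists, none had an unadjusted p under 0.05 in limma. By the exact permutation test, unadjusted, CYP2E1 of the perivenous list did (p = 0.0317), a gene in which H4 was lowest at 14.41 and the other 9 animals lay between 14.96 and 15.18. Amino acid catabolism, which feeds nitrogen to the cycle, had 22 of 39 genes measured. Of these 19 were higher in H (median difference 0.11), beside 37.2% of all tested genes, but 13 of 22 without L3 (median 0.02) and 15 of 22 without H1. L3 was the lowest animal in 13 of the 22, and in 9.33% of all tested genes. The largest difference in this list was SDS, serine dehydratase, at 1.44 (SE 1.29), and the others named by rule were CTH, cystathionine gamma-lyase, at 0.33 (SE 0.19) and SHMT1, serine hydroxymethyltransferase, at 0.31 (SE 0.17). The median r of the list with the 5 enzymes was 0.43. TAT, tyrosine aminotransferase, named here after its values were seen, gave r = 0.90 with CPS1 and 0.80 with ARG1.

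Arginine, ornithine, proline and polyamine metabolism had 16 of 26 genes measured, 8 of them higher in H (median 0.01; 5 without H3), and SRM, spermidine synthase, had the largest difference at -0.95 (SE 0.47). GAMT, which makes creatine, differed by 0.13. Mitochondrial nitrogen supply had 4 of 20 measured, 2 higher in H (median -0.01), with SLC1A2 at 0.55 (SE 0.53) and RHBG, an ammonia transporter, at -0.70 (SE 0.53). The aspartate and fumarate arm had 9 of 18 measured, 4 higher in H (median -0.01), with MDH2, malate dehydrogenase, at -0.05 and SLC25A11 at -0.18. Regulators of hepatic nitrogen metabolism had 16 of 25 measured, 6 higher in H (median -0.07; 3 without H2), with CEBPB at 0.22 and FOXO1, the insulin-responsive transcription factor, at 0.25 (SE 0.16).

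Periportal genes outside the cycle had 11 of 18 measured, 7 higher in H (median 0.04) and 5 of 11 without H2, H3, L2 or L3. The largest difference was that of SDS at 1.44 (SE 1.29), while ALB differed by -0.07 and CDH1 by -0.19. SDS and TAT are also counted under amino acid catabolism. Perivenous genes had 7 of 17 measured, 4 higher in H (median 0.14, but -0.08 without L3), with CYP2E1 at -0.21 (SE 0.13) and CYP7A1, which starts the making of bile acids from cholesterol, at 1.45 (SE 1.63). The median r with the 5 urea cycle enzymes was 0.30 for the periportal list and 0.10 for the perivenous one. By enzyme, the periportal and perivenous medians were 0.32 and 0.09 for CPS1, 0.35 and 0.10 for ASS1, and 0.29 and -0.01 for ASL. For OTC they were 0.24 and 0.23, and for ARG1 -0.00075 and 0.09. OAT, which is in the perivenous list, gave r of 0.81 with CPS1 and 0.75 with ASS1. The difference between these lists was not tested.

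The 3' to 5' difference of the GAPDH control probe sets, a measure of RNA integrity, averaged 1.96 ± 0.28 over the H animals and 1.99 ± 0.42 over the L animals (exact permutation p = 0.897). It was not even over the arrays, at 2.70 in L1, 2.39 in H2 and from 1.68 to 2.08 in the other animals. Of 10 relations of the enzymes with this difference and with the array median, the smallest adjusted permutation p was 0.696 for r. JCHAIN, the only B and plasma cell marker measured, was highest in L3, at 11.37, with L1 next at 10.51. Its r with OTC was -0.70 over the 10 animals, a value that rests largely on L3, the animal lowest in OTC. Of the 4 stellate cell and fibroblast markers measured, 3 (COL1A2, ACTA2 and DES) were lowest in L3. Their r with OTC was 0.77, 0.43 and 0.74, and the median over the list was 0.58. DCN, the remaining marker, was lowest in L1 and gave 0.19. DES was dim and stood at 4.53 in most animals, with 4.75 in H1 and 4.31 in L3. COL1A2, named here after its values were seen, likewise repeated the value 6.17 in several animals. The r values of these markers with OTC were not taken again without L3. The 4 Kupffer cell and 3 endothelial markers had median r of -0.06 and 0.25 with OTC, and L3 was highest in CD163 and LYVE1. The part of these cells in the OTC value of L3 was not tested.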

How the data were processed

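Liver RNA of 5 H and 5 L females was hybridised to 1 GeneChip Porcine array per animal. Scans were processed by the authors in GCOS, then background-adjusted and normalized by GCRMA, of versions not given in the sources used here. Deposited values are log2 signals for 24123 probe sets, 124 of them controls. GCRMA sets dim probe sets to a common floor, which shrinks their differences. Platform annotation named 1 gene for 10069 probe sets and several for 198. Probe sets averaging 4 or more over the arrays were averaged per gene, which left 4730 genes. The groups were set against each other in R 4.3.3 by limma 3.58.1 (functions lmFit and eBayes, Benjamini-Hochberg over all genes), a script tested on simulated data, and with exact permutation tests over animals. Correlations used 100000 permutations. The number of arrays limits the precision.

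Members and lists were chosen with earlier results of these data known. The genes named are the members, 10 neighbouring genes fixed by name, the 3 tested genes with the highest r for each member, and in each list the gene with the highest mean, the largest difference and the smallest p; others are said to have been chosen after their values were seen. Alternatives were filters, normalization, array weights, RNA integrity, the prior, the combination of probe sets, a replicate block and leaving out each animal. The list counts with an animal left out, the nearest genes of OTC without L3 and the relations with neighbouring enzymes were added after seeing the data. Some H and L animals are sisters or half-sisters, and some animals of a group share a father. The sources do not say which, so no fit takes kinship into account and p-values measure the spread between these 10. The sequencing data of the same animals were not used here.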

Additional observations from a re-analysis of the deposited data

Results flagged for a closer look

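OTC in L3, at 9.28, lay apart from the other L animals, the nearest of which was at 10.55. The gap was 0.767 of the range of the 5 L animals, above Dixon's limit of 0.71. Of such groups 10 were examined, and chance passes this limit in about 1 group of 20. The OTC difference between H and L was 0.36 with L3 and 0.07 without it. The cause was not tested.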

How the results depend on the processing

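The H minus L differences kept their sign and stayed above an adjusted p of 0.05 under all 22 alternatives, over 0.10 to 0.23 for CPS1, 0.07 to 0.49 for OTC, 0.00299 to 0.23 for ASS1, 0.03 to 0.30 for ASL and 0.08 to 0.26 for ARG1. Each enzyme has 1 probe set, which passed every filter. The filters, the combination of probe sets, the prior and the replicate block could therefore not change these estimates, only their p. Nor could the combination of probe sets change the r of a pair of enzymes. The sources do not say that the animal numbers pair the animals. Correlations of deviations ran from -0.24 to 0.28 for same-numbered and from -0.32 to 0.40 for different-numbered animals. With no known pair of sisters to compare, this cannot show whether the numbers are pairs. With the replicate block the CPS1 difference was 0.15 (limma adjusted p = 0.994). Genes with an unadjusted p under 0.05 numbered 125, 140 with the block, 213 without H2 and 281 without L2. Genes with a p of at most 0.005 and a fold of at least 1.5 numbered 0, and 1 to 6 under 9 alternatives. The median r of the 10 pairs ran from 0.42 to 0.61. Pairs with an adjusted p under 0.05 numbered 1, but 0 with Spearman's rho, 0 after quantile normalization, 2 with GAPDH residuals, and 0 to 2 as each animal was left out. With GAPDH residuals these were CPS1 with ARG1 (r = 0.868, adjusted permutation p = 0.0147) and CPS1 with ASS1 (r = 0.779, adjusted permutation p = 0.0365). Without H2, too, r was higher for CPS1 with ARG1 (0.797) than for CPS1 with ASS1 (0.755). The pair of CPS1 and ASS1 lost its call with rho (adjusted p = 0.0740), quantile normalization (0.0543) and without H1, H2, H3, H5, L1 or L2 (0.0563 to 0.125). Relations with the 5 neighbouring enzymes, whose alternatives were chosen after seeing the data, with an adjusted p under 0.05 numbered 0, but 3 with groups centred, 6 with GAPDH residuals, 3 after quantile normalization, 5 with arrays centred on their median, 5 with the probe set of the highest mean, and 0 to 4 as each animal was left out (1 without L3, 3 without L4 or L5, 4 without L1). Signs turned only in relations with GOT2 and GLUL, none of them called. CPS1 with GOT2 ran from -0.47 to 0.16 as each animal was left out (positive without H3). OTC with GOT2 was -0.16 by rho and ran from -0.56 (without L3) to 0.58. OTC with GLUL was -0.28 with the highest probe set and ran from -0.17 (without L3) to 0.39. ASS1 with GOT2 was -0.12 with GAPDH residuals and ran from -0.14 to 0.40 (negative without H2, H5 or L3). ASS1 with GLUL was 0.0545 by rho and ran from -0.21 to 0.14 (positive without H5). ASL with GLUL was 0.0178 with groups centred, 0.0216 with GAPDH residuals and ran from -0.16 to 0.32 (positive without H1, H2 or H5). The causes were not tested.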
